A study of Mus musculus with 30 samples.

Results

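Regions that carried a peak of acetylated lysine 27 of histone H3 (H3K27ac) in Tnm2 lung adenocarcinoma cells with and without UNC0638, and no such peak in CK1750 cells in either condition, are described here. They were found by joining overlapping or touching intervals of the 4 deposited H3K27ac peak lists on the autosomes and chromosome X, and by retaining joined regions with a peak in both Tnm2 lists and in neither CK1750 list. Of 37671 joined regions, 1478 met the rule, or 3.92%. The members were chosen by presence and absence of peaks in these lists, so their presence and their scores are a description and were not tested.

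Tnm2 and CK1750 are mouse lung adenocarcinoma cell lines, each a single line. Cells of both lines were grown with DMSO, the solvent, or with 1 µM UNC0638. The H3K27ac samples were 2 of Tnm2 with DMSO, 2 of Tnm2 with UNC0638, 3 of CK1750 with DMSO and 2 of CK1750 with UNC0638. By their titles, the 3 CK1750 DMSO samples carry 2 replicate numbers, since 2 of them are sequencing runs of replicate 1, and both CK1750 UNC0638 samples carry the same number. The study describes CK1750 as resembling tumour-propagating cells and TnM2, its spelling of the other line, as low in the surface antigen Sca-1. Libraries of a group share 1 merged list, so no value below has a spread between replicates, no difference between lists could be tested, and read depth is unknown. Intervals are Wilson 95% intervals of shares and cover counting error only. In bulk chromatin, fewer cells with a mark and less mark per cell cannot be told apart.

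H3K27ac is laid down by the acetyltransferases CBP and p300 at active promoters and enhancers, where it accompanies open chromatin and bound transcription factors. Enhancers differ more between cell types than promoters do, and a gene can be served by several of them spread over its introns and its flanks. UNC0638 blocks G9a (Ehmt2) and Glp (Ehmt1), which together place mono- and dimethylation on lysine 9 of histone H3, a mark of repressed chromatin. In lung adenocarcinoma, cells can leave the alveolar state and take up gut or stomach genes, among them those driven by the nuclear receptor Hnf4a.

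The central sequences of some of the strongest members are shown to give the regions a form, with matches to 5 transcription factor motifs in capitals. The motif searched for AP-1, which Fos and Jun proteins bind, was TGANTCA. For GATA factors such as Gata6 of the lung it was AGATAA. TEAD proteins, the partners of Yap, were searched as GGAATGT, and forkhead (FOX) factors as TGTTTAC. The nuclear receptor HNF4 was searched as CAAAGTCCA. All were searched on both strands. Away from transcription start sites (TSSs), 300 bases at the centre of the region were taken from GRCm38 on the plus strand.
Dlx1, chr2:71534715-71535014, the member with the highest UNC0638 score and with no match: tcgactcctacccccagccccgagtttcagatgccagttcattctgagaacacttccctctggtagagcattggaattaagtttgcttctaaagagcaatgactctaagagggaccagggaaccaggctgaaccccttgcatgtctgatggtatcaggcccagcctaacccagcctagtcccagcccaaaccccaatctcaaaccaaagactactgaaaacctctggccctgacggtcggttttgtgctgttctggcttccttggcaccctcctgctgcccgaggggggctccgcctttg
Rpap3, chr15:97573804-97574103, with an AP-1 match: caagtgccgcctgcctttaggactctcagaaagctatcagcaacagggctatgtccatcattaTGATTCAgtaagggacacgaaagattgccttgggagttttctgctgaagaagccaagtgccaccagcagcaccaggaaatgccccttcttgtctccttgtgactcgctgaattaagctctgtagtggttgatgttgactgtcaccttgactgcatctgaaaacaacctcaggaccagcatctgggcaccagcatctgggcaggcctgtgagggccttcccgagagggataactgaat
Tns1, chr1:74030552-74030851, within the member of the second-highest DMSO score, with a TEAD match: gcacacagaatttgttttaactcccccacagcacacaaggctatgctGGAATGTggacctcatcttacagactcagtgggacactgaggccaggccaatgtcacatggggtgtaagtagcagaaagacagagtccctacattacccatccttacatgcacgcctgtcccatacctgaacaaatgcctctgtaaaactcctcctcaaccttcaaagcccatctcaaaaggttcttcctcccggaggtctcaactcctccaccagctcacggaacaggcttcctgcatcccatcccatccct
Grk5, chr19:60946359-60946658, with an AP-1 match: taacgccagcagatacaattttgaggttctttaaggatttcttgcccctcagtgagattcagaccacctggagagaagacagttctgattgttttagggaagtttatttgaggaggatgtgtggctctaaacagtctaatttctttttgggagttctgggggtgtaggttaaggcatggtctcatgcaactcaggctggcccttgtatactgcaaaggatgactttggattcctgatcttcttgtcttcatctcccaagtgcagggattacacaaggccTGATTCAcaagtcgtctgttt
Sipa1l2, chr8:125619510-125619809, with a pair of AP-1 matches close together: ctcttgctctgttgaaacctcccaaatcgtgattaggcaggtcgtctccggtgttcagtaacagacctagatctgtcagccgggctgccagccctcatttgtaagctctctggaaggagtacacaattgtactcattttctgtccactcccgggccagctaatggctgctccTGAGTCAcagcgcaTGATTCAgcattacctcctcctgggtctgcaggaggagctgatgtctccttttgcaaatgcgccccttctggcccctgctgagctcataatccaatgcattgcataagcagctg
For the strongest members at TSSs, the 250 bases before the start were taken from RefSeq (GRCm38.p6) on the gene's own strand.
Sspn, chr6:145933872-145934121, plus strand: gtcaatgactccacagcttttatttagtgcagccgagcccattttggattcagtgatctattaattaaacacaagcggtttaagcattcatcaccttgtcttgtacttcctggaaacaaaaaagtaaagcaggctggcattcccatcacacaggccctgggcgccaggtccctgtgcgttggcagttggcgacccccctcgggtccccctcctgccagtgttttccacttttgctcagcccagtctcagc
Cldn18, chr9:99710064-99710313, minus strand: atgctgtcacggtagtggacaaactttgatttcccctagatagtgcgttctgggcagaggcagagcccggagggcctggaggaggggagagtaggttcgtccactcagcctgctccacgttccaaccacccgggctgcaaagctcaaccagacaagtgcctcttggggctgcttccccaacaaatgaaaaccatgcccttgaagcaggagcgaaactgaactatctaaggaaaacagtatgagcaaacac
None of the 5 motifs had a match in either promoter window. Among 32407 RefSeq promoter windows of that length, 6.74% held AP-1, 9.99% GATA, 3.27% TEAD, 3.18% FOX and 0.389% HNF4. In windows of 300 bases, 13.9% of the 1161 members away from TSSs held AP-1, against 15.2% of all 23280 joined regions away from TSSs, and the shares were 15.4% and 13.2% for GATA, 5.34% and 5.25% for TEAD, 5.86% and 5.12% for FOX, and 0.689% and 0.674% for HNF4. A match is a stretch of letters and not a measured binding site.

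Most members were modest peaks. Scores are -10 log10 of the caller's P value, begin at 50 in every list and rank peaks within a list. With DMSO the highest score of a member ran from 50.08 to 1438.96 with a median of 122.22, and with UNC0638 from 50.02 to 558.81 with a median of 74.10. Within the lists themselves, the median member stood at the 45.1th percentile of Tnm2 DMSO peaks and at the 26.4th of Tnm2 UNC0638 peaks, and 326 of 1478 members ranked higher in the UNC0638 list. Across members the scores of the lists had a Spearman correlation of 0.46, given as a description since both lists come from 1 line. The smaller of the scores reached 100 in 313 members (21.2%), 200 in 39 and 500 in 3.

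**Figure D1:**
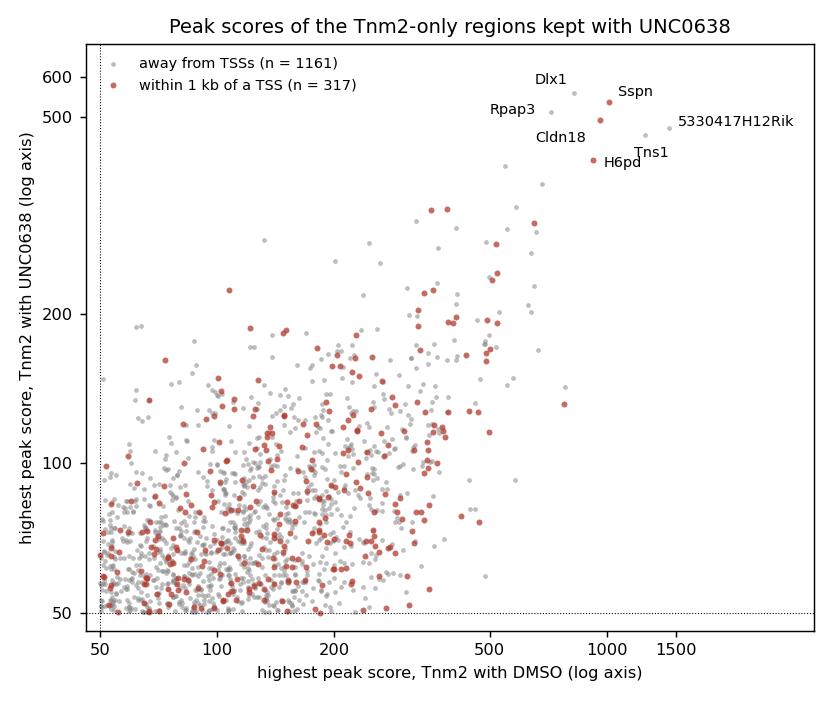
Highest peak score of each of the 1478 members with DMSO (x axis) and with UNC0638 (y axis), both on log axes, with members within 1 kb of a TSS in red, others in grey, and dotted lines at the lists' lowest score of 50. Most points lie low in both lists, and the few named regions at Dlx1, Sspn, Rpap3, Cldn18, 5330417H12Rik, Tns1 and H6pd stand apart at the upper right.

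A score at the edge decides membership on both sides. The weakest member had a smaller score of 50.02, and 244 members had a smaller score below 55. On the other side, 153 regions with peaks in both Tnm2 lists missed the rule through a CK1750 peak whose best score was below 55, the lowest being 50.03, and 1298 had a peak in only 1 CK1750 list. In 1401 members (94.8%) a single DMSO peak met a single UNC0638 peak. In these the median width was 781.0 bp with DMSO and 821.0 bp with UNC0638, and the UNC0638 peak was the wider in 793. Joined members had a median width of 1014 bp and covered 1.64 Mb.

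Of Tnm2 DMSO regions free of CK1750 peaks, 1478 of 8034 had a peak with UNC0638, or 18.4% (17.6 to 19.3). Over all 27684 Tnm2 DMSO regions the share was 56.6%, over the 16146 with peaks in both CK1750 lists it was 79.8%, and for the mirror class, CK1750 DMSO regions free of Tnm2 peaks, 36.2% had a CK1750 peak with UNC0638. The Tnm2 UNC0638 list is the shortest of the 4, with 18789 peaks on these chromosomes against 30631 with DMSO. With the 18789 highest-scoring peaks of every list, the share rose to 48.9% (47.1 to 50.6) of 3155 regions, beside 89.8% of those with peaks in both CK1750 lists and 54.2% for the mirror class.

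DMSO score and retention moved together. Among regions free of CK1750 peaks, 9.08% (8.38 to 9.84) with a DMSO score from 50 to 100 had a UNC0638 peak, 35.6% (33.3 to 37.9) from 100 to 200, 80.9% (76.7 to 84.5) from 200 to 500, and 96.8% (83.8 to 99.4), or 30 of 31, from 500 upward. Regions with peaks in both CK1750 lists had shares of 31.9%, 60.2%, 91.6% and 99.8% in the same ranges. These shares rest on the values that chose the members, and the difference between the kinds of region was not tested. The single CK1750-free region scoring 500 or more without a UNC0638 peak lay at a TSS.

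**Figure D2:**
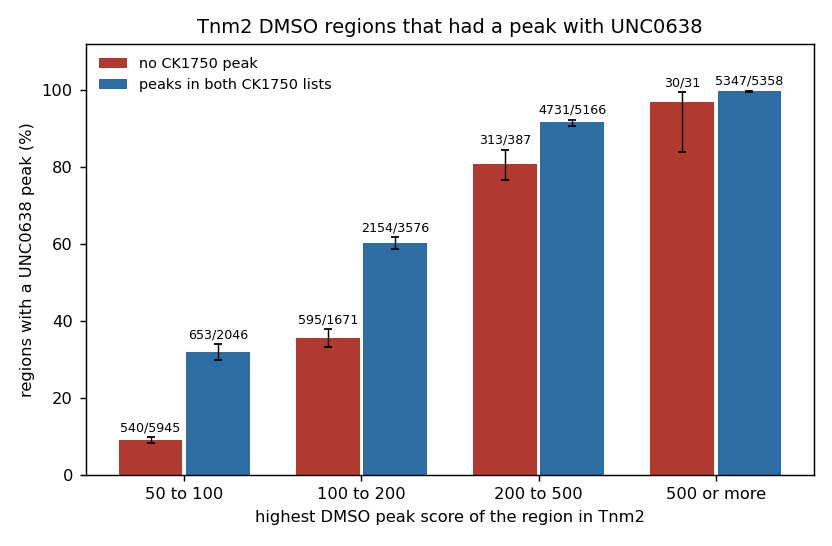
Share of Tnm2 DMSO regions with a UNC0638 peak (y axis, percent) by the region's highest DMSO score (x axis), for regions free of CK1750 peaks (red) and with peaks in both CK1750 lists (blue), with Wilson 95% intervals and counts above the bars. Shares run from 9.08% to 96.8% in red and from 31.9% to 99.8% in blue.

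The strongest member at a protein-coding TSS was that of Sspn (sarcospan, part of the dystrophin-associated complex), with scores of 1010.24 with DMSO and 535.84 with UNC0638 at chr6:145933249-145934993. Next came Cldn18, a tight junction protein of stomach and lung epithelium, with 958.26 and 491.69 at chr9:99709268-99710706. H6pd, which supplies NADPH in the endoplasmic reticulum, had 920.56 and 409.52 at chr4:150000399-150003059. These 3 regions ranked above the 91st percentile of Tnm2 DMSO peaks, and the nearest CK1750 peak lay 21.6, 4.95 and 5.24 kb away.

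The other 7 of the 10 strongest at TSSs were Ccdc63, Fam19a5, Fut4, Aim2, Scarf2, Pdlim4 and Rftn2, with DMSO scores of 357.09 to 650.22 and UNC0638 scores of 197.11 to 324.88. Fut4 is a fucosyltransferase that makes the Lewis x antigen, with scores of 518.02 and 276.95. Aim2, a sensor of cytosolic DNA that assembles an inflammasome, had 521.79 and 241.61. Ccdc63 stood higher within the UNC0638 list than within the DMSO list, at percentiles of 82.4 and 77.1. Fam19a5 (81.0 and 86.6) and Fut4 (78.6 and 82.7) stood somewhat lower in the UNC0638 list.

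Of 21755 protein-coding genes, 232 (1.07%) had a member within 1 kb of a TSS. At 126 of them (54.3%) no annotated TSS had a CK1750 peak within 1 kb. The other 106 (45.7%) had one within 1 kb of a TSS, either the member's own or another. Foxp1, a forkhead factor of the lung, was of the second kind. Its member at chr6:99265580-99266910 (231.42 and 149.71) lay at an internal start, while peaks at other starts scored up to 2698.91 in CK1750. At Runx1 the member at chr16:92824660-92826216 ranked higher with UNC0638, with scores of 150.45 and 185.84 and percentiles of 52.3 and 67.1. Other starts of the gene carried CK1750 peaks up to 3100.00. An intronic Runx1 member at chr16:92680170-92680913 ranked lower with UNC0638, with 152.46 and 50.38 and percentiles of 52.7 and 0.538. Cldn18, Sspn, Fut4 and Aim2 had no CK1750 peak at any annotated start.

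Away from TSSs, the highest smaller score belonged to an intron of the antisense transcript Dlx1as, 3.11 kb from the TSS of the homeobox gene Dlx1, with 821.94 and 558.81 at chr2:71533888-71535842. A region 105 kb from Rpap3, a cofactor of RNA polymerase assembly, had 717.09 and 511.00. The highest DMSO score of all members, 1438.96, was measured in an intron of Ppfibp2 at chr7:107662929-107667413, where the UNC0638 score was 474.42. Its nearest protein-coding TSS is that of 5330417H12Rik, 37.8 kb away, and the nearest CK1750 peak lay 370 kb off.

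An intron of Tns1, encoding the focal adhesion protein tensin 1, held 2 of the 10 strongest members away from TSSs. The member at chr1:74028546-74032857 had scores of 1248.49 and 458.37, and its neighbour at chr1:74023556-74026223 had 324.01 and 307.81. Introns of Pdlim1 (547.75 and 397.98), Grk5, a kinase of G protein-coupled receptors (681.38 and 366.41), and St6galnac3 (553.73 and 297.11) followed, along with regions whose nearest TSS was that of Sipa1l2 (583.80 and 328.60) and Apod (410.70 and 297.71). All 10 fell between 38% and 55.8% GC in their central 500 bp.

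By position, 317 members (21.4%, 19.4 to 23.6) lay within 1 kb of an annotated TSS, 608 (41.1%) were centred in introns, 511 (34.6%) between genes and 42 (2.84%) in exons. The TSS share was 15.7% (14.8 to 16.6) in Tnm2-only regions of the DMSO list alone, 32.3% (30.4 to 34.3) in CK1750-only regions with peaks in both conditions, and 65.5% (64.7 to 66.3) in regions of all 4 lists. The members' interval overlapped none of these. Among CK1750-free regions of like DMSO score, however, retained and lost regions differed less. From 50 to 100, 15.4% (12.6 to 18.7) of members and 14.9% (13.9 to 15.8) of DMSO-only regions lay at TSSs, and from 100 to 200, 20.8% (17.8 to 24.3) and 19.2% (17.0 to 21.7). In the range from 200 to 500, 31.9% of 313 members and 23.0% of 74 DMSO-only regions did, with overlapping intervals.

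TSS members had a GC content of 54.0% (median of the central 500 bp, quartiles 48.6 and 60.4) and a ratio of observed to expected CpG of 0.295. Tnm2-only regions of the DMSO list alone were lower still at TSSs, at 52.2% and 0.245, while CK1750-only regions with peaks in both conditions had 58.8% and 0.624, and regions of all 4 lists 63.4% and 0.784. Single TSS members were as GC-rich as the latter, among them those of Fam19a5 (80.4%), Wipf1 (73.6%) and Fut4 (71.4%). Away from TSSs the classes were close, at 49.4% GC in members, 48.2% in DMSO-only regions, 48.8% in CK1750-only regions and 49.4% in regions of all 4 lists.

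In the central 500 bp of the 1161 members away from TSSs, AP-1 had a match in 23.2% (20.8 to 25.7), and in 22.2% (21.1 to 23.3) of Tnm2-only regions of the DMSO list alone. CK1750-only regions with peaks in both conditions had 26.6% (24.4 to 28.9), and regions of all 4 lists 29.9% (28.5 to 31.2), against 24.9% of all joined regions away from TSSs. GATA matches were found in 23.5% (21.2 to 26.0) of members, in 23.1% (22.0 to 24.3) of DMSO-only regions, in 18.8% (16.9 to 20.9) of CK1750-only regions and in 22.1% (20.9 to 23.3) of regions of all 4 lists. TEAD stood at 8.79%, 8.25%, 7.59% and 11.1% in these classes in turn, and FOX at 9.22%, 9.59%, 8.61% and 8.78%. HNF4 was rare, in 17 members (1.46%, 0.916 to 2.33) and 13 CK1750-only regions (0.881%, 0.516 to 1.5), with overlapping intervals. For AP-1 the members' interval lay below that of regions of all 4 lists, and for GATA above that of CK1750-only regions, but for both it overlapped that of DMSO-only regions, so neither share was particular to the members. In all, 24 motifs were searched in this way, with no adjustment over them.

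**Figure D3:**
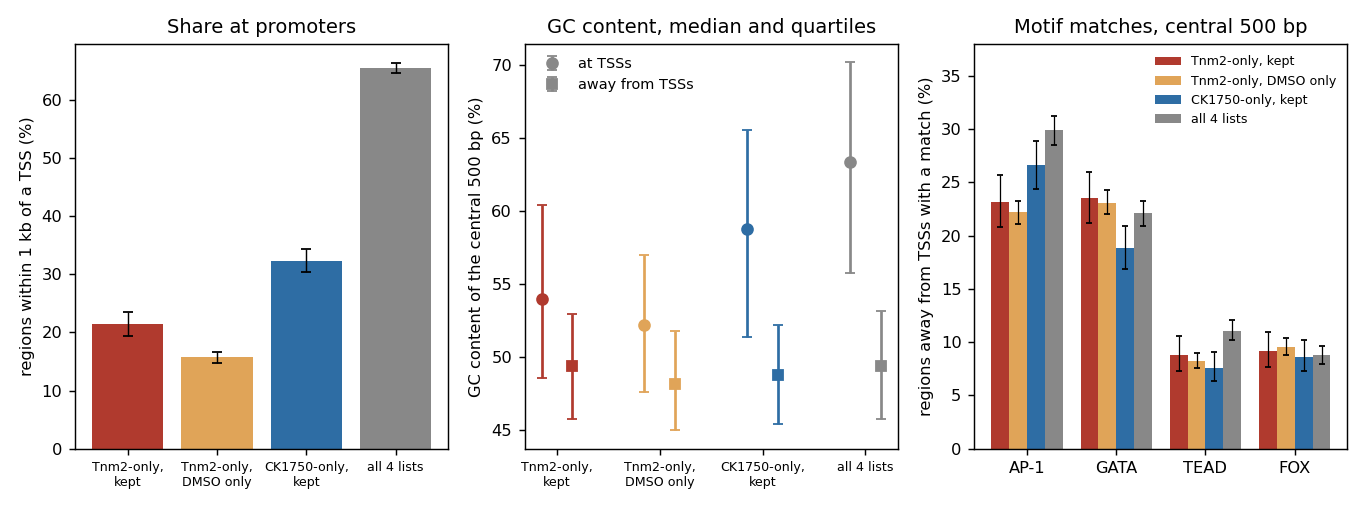
Left, share of regions within 1 kb of a TSS (percent) with Wilson 95% intervals; middle, GC content of the central 500 bp (percent, median with quartiles) at TSSs (circles) and away from them (squares); right, share of regions away from TSSs with a motif match (percent) with Wilson 95% intervals. Members (red) lie between the DMSO-only (orange) and CK1750-only (blue) classes in TSS share, at 21.4%, and their TSS regions are less GC-rich than those of all 4 lists (grey).

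Absence of a CK1750 peak was often local. The nearest one lay within 1 kb of 237 members (16.0%), within 5 kb of 581 (39.3%) and within 50 kb of 1228 (83.1%), at a median of 8.08 kb. Tnm2-only regions of the DMSO list alone lay closer. Of them 21.8%, 45.7% and 85.2% had one within these distances, at a median of 6.29 kb. Of the 1161 members away from TSSs, 861 (74.2%, 71.6 to 76.6) had as nearest protein-coding gene one with a CK1750 peak at a TSS. A further 50 (4.31%, 3.28 to 5.63) had a nearest gene whose TSS peaks were in Tnm2 alone, and 250 (21.5%) one without a TSS peak in any list. For CK1750-only regions with the lines exchanged, the first share was 73.1% (70.8 to 75.3), the second 7.53% (6.29 to 8.98), higher than in members, and the last 19.4%. In Tnm2-only regions of the DMSO list alone the shares in turn were 77.5% (76.4 to 78.6), 3.65% (3.19 to 4.18) and 18.8%.

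Members gathered at some genes. They were nearest to the TSSs of 1151 protein-coding genes (5.29% of 21755), 929 of which had 1 member and 64 had 3 or more. Ank, which exports pyrophosphate from cells, had the most with 11, spread over 122 kb and interleaved with CK1750 peaks, the closest 0.234 kb from a member. Their DMSO scores ran from 50.08 to 335.89 and their UNC0638 scores from 57.55 to 181.50, and peaks at the Ank TSS were in all 4 lists. Tns1 had 8 members, with UNC0638 scores of 61.30 to 458.37. Gnaq, the alpha subunit of the Gq protein, also had 8, with scores of 82.76 to 247.39 with DMSO and 53.87 to 118.05 with UNC0638, all in introns. Tnm2-only regions of the DMSO list alone gathered there too, with 14 nearest to Ank, 17 to Tns1 and 8 to Gnaq. These genes are 128, 214 and 255 kb long, against a median of 17.4 kb for protein-coding genes.

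Foxp1, Plce1 (phospholipase C epsilon, a Ras effector), Pls3 (an actin-bundling plastin), Jag1 (a Notch ligand) and Zmiz1 had 5 members each, and Grk5 and Zfp532 had 4. The DMSO-only regions nearest to these genes numbered 8, 2, 6, 4, 11, 2 and 6 in turn. For 9 of these 10 genes a TSS carried peaks in all 4 lists, and for Pls3 in 3, the Tnm2 UNC0638 list being without one. Of 13 genes with 4 members only the 2 with the highest smaller score are among these 10, and others of the 13 differed. Bcas1 had no TSS peak in any list, Egfr had one in the Tnm2 DMSO list alone, and Smpd3 had none in CK1750 with UNC0638. Of the 5 members nearest to Pls3, 4 have near-identical copies elsewhere in the genome, so their reads may come from more than 1 place. Such copies exist for 20 members in all (1.35%).

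Neighbouring members without an intervening CK1750 peak formed runs. Of the 1478 members, 379 (25.6%) shared a run with another member. The same share was not worked out for other classes of region, so it cannot be read as particular to members. At Tns1 a run of 14 regions at chr1:74015731-74076672 held 6 members, 7 regions of the DMSO list alone and 1 of the UNC0638 list alone in 60.9 kb. On chromosome 19, chr19:38976025-40269277 held 6 members among 10 regions over 1290 kb, near the cytochrome P450 genes Cyp2c65, Cyp2c66 and Cyp2c70 and near Pdlim1. A run between Prok2 and Rybp (5 members of 15 regions, 225 kb) and 1 from Rps24 to Zmiz1 (5 of 10, 566 kb) came next.

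Egfr, the epidermal growth factor receptor and a driver of lung adenocarcinoma, held 4 members of a run of 8 regions at chr11:16715144-16831132. All 4 were intronic, with DMSO scores of 128.57, 142.86, 149.41 and 133.66 and UNC0638 scores of 100.63, 98.59, 94.60 and 53.54. The CK1750 peaks on either side of this run were 565 kb apart. At the Egfr TSS only the Tnm2 DMSO list had a peak (139.13), and no CK1750 list had one.

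**Figure D4:**
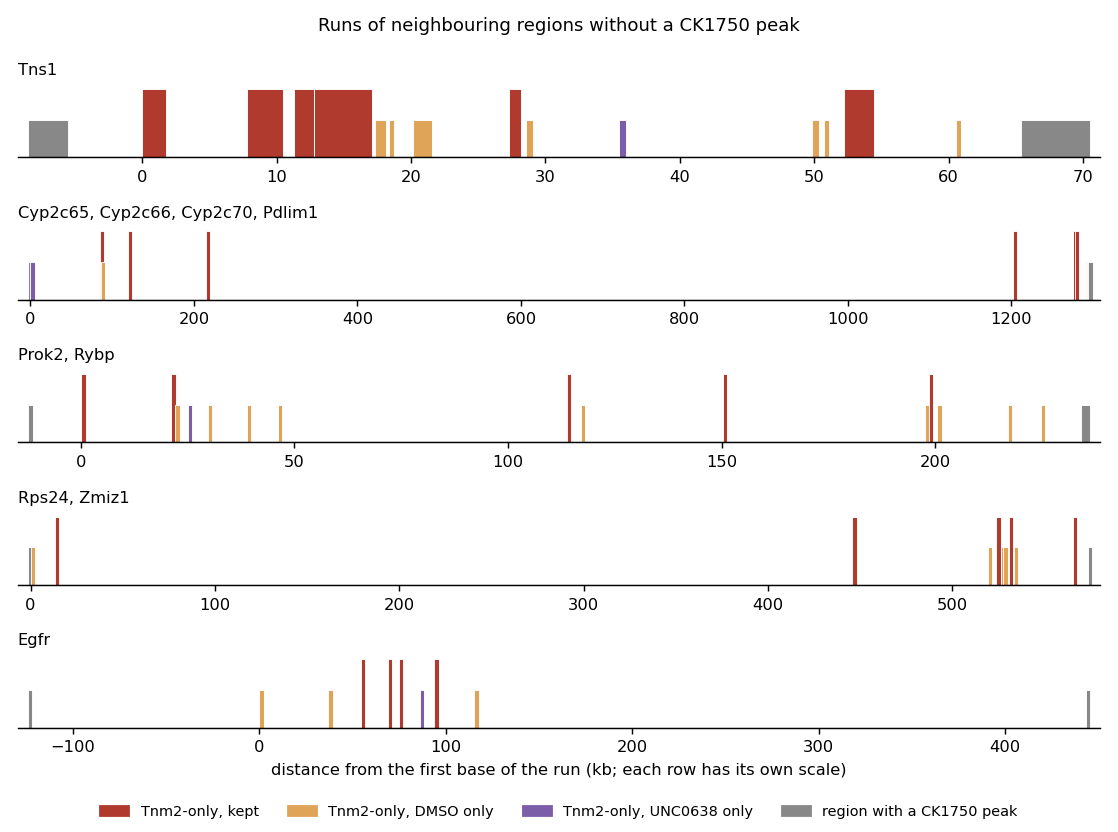
The 5 runs with the most members, drawn as distance from the run's first base (kb, own scale per row) with members as tall red bars, regions of only the DMSO list in orange, of only the UNC0638 list in violet, and the flanking regions with a CK1750 peak in grey; very narrow regions are widened to stay visible. Members are packed within 60.9 kb at Tns1 and lie far apart in the run of 1290 kb on chromosome 19.

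Chromosomes differed in how many of their Tnm2 DMSO regions were members. The share was 10.1% (8.55 to 11.9) on chromosome 19, with 125 members, and 8.0% (6.87 to 9.30) on chromosome 6, with 154, against 2.5% (1.72 to 3.64) on chromosome 10 and 3.31% (2.02 to 5.39) on chromosome X. Regions of all 4 lists moved the same way on these chromosomes, but not on all others. On chromosome 19 their median stood at the 81.6th percentile of the Tnm2 DMSO list and the 71.9th of the CK1750 DMSO list. It stood at 81.0 and 71.1 on chromosome 6, at 73.5 and 78.8 on chromosome 10, and at 69.2 and 78.4 on chromosome X. Over all chromosomes it stood at 78.0 and 75.1. Chromosome 3, with a member share of 3.65%, had 79.8 and 78.2, and chromosome 14, with 6.01%, had 75.4 and 71.8. DNA copy number was not measured here, and the part of chromosome-wide signal in these shares was not tested.

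Genes of the gut and stomach had members at their starts. Of 25 such genes, 5 had a member within 1 kb of a TSS, against 1.07% of all protein-coding genes, among them Cldn18, Lgals4, Vil1 and Creb3l1. None of the 25 had a CK1750-only region with peaks in both conditions at a TSS, against 3.06% of all genes, and 3 (12%) had a Tnm2 region of the DMSO list alone, against 3.33%. Within 50 kb of the gene, 10 of 25 (40.0%, 23.4 to 59.3) had a member, against 10.9% of all genes, and 3 (12%, 4.17 to 30) had such a CK1750-only region, against 18.5%. These intervals overlap. For DMSO-only regions the count was 13 (52.0%), against 33.7%. The list was drawn up with earlier results of these data known, so its counts are no independent evidence.

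Vil1, encoding the brush border protein villin, had a TSS member with scores of 151.36 with DMSO and 83.63 with UNC0638 at chr1:74408535-74409686, with a CK1750 peak 1.08 kb away. Creb3l1 had 219.84 and 57.23. At Lgals4, a galectin of the gut epithelium, the member at chr7:28840484-28841426 had 402.91 and 192.21, but another start of the gene carried CK1750 peaks of 268.38 and 216.84.

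Cldn18 had 3 members in 1 run of 8.10 kb, with UNC0638 scores of 491.69, 127.69 and 89.41. Hnf4a had a single intronic member (80.46 and 71.69) with a CK1750 peak 0.489 kb away, and its TSSs carried peaks in all 4 lists, 315.41 and 1589.34 in CK1750 and 418.07 and 204.85 in Tnm2. Both members near Pdx1, a factor of the pancreas and duodenum, were counted for its neighbour Cdx2 as well. Onecut2 had 3, and Gata5 had 1 that lies closer to Cables2. In the other 15 genes, among them Gkn1, Gkn2, Tff1, Tff2, Muc6, Gata4 and Cdx1, no member lay within 50 kb.

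A list of 10 genes around Sca-1 and proteases, drawn up from the study's subject and not all named in its text, had 5 with a member within 50 kb, against 10.9% of all genes, drawn from 3 distinct members. The count was 2 by nearest TSS and 0 with either minimum score of 100. CK1750-only regions with peaks in both conditions were near 2 of the 10, against 18.5% of all genes. DMSO-only regions were near 6, more genes than had a member, against 33.7% of all genes. Mmp10, Mmp13, Anxa10, Wnt7a and Lcp1 had no member within 50 kb. Ctse, the gastric protease cathepsin E, had 1 at a TSS, chr1:131661668-131662489, with scores of 162.64 and 84.07 and no CK1750 peak at any start. Mcpt2, Mcpt4 and Mcpt8, mast cell proteases in a cluster, share a member at chr14:56077623-56078516 (114.41 and 57.12), 0.514 kb from a CK1750 peak. The member near Ly6a, which encodes Sca-1, lay nearer to Ly6i and was weak (87.29 and 51.44), while the Ly6a TSS had peaks in both CK1750 lists (2044.91 and 1111.22) and with DMSO in Tnm2 (146.15).

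In the lung lineage factors, 6 of 30 had a member within 50 kb, against 10.9% of all protein-coding genes. At a TSS 3 had one, Foxp1, Foxp2 and Gata6, against 1.07%. CK1750-only regions were near 4 of the 30 and at a TSS of 2, against 18.5% and 3.06% of all genes. DMSO-only regions were near 11 and at a TSS of 1, against 33.7% and 3.33%. The Foxp2 start at chr6:15183954-15184977 had 223.01 and 125.21, and no CK1750 peak lay within 535 kb. Gata6 had its member (147.99 and 66.28) at one of its starts, while others carried peaks in all 4 lists. Il33, an alveolar cytokine gene of the alveolar type 2 list (3 of 16 near a member), had a TSS member with 200.18 and 89.83. In that list 2 genes were near a CK1750-only region and 6 near a DMSO-only region. Nkx2-1, the defining factor of lung epithelium, had TSS peaks in all 4 lists and no member.

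Oncofoetal and metastasis genes had a member within 50 kb in 6 of 17 (35.3%, 17.3 to 58.7), against 10.9% of all genes, with TSS members at Igf2bp3, an RNA-binding protein of the embryo (168.81 and 61.90), and at Runx1. As many of these genes had a CK1750-only region nearby, against 18.5% of all genes, and 14 (82.4%) a DMSO-only region, against 33.7%. The count of genes with a member was 2 and 1 with the minimum score of 100 in all lists and in the Tnm2 lists. Hmga2, a chromatin protein of the embryo and of advanced lung tumours, had 2 within 50 kb and 1 farther off. Receptor tyrosine kinases had 11 of 40 (27.5%, 16.1 to 42.8), led by Egfr with 4 and Ret with 2, and their growth factors 4 of 40, with Fgf2 (112.98 and 80.43) and Fgf7 (189.24 and 77.68) at TSSs. For these kinases the count of genes near a CK1750-only region was 10, and for the growth factors 11. Near a DMSO-only region were 23 (57.5%) and 19 (47.5%) genes in turn, against 33.7% of all genes.

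Notch pathway genes had 7 of 21 near a member (33.3%, 17.2 to 54.6) and 8 (38.1%) near a CK1750-only region, against 10.9% and 18.5% of all genes. The count near a member was 4 with lists of equal length, and 2 and 1 with the score minimums. DMSO-only regions were near 9 of the 21 (42.9%), against 33.7% of all genes. Notch1 had 2 members (111.02 and 95.14, and 92.18 and 76.56) without a TSS peak in any list, Notch2 had 2, and the ligand Jag1 had 2 within 50 kb. Surface markers of tumour-propagating cells, which share Notch1, Notch2, Ly6a and Itgb4 with other lists, had 6 of 12 (50%, 25.4 to 74.6), and 5 of 12 near a CK1750-only region, against the same shares of all genes. With lists of equal length 2 of the 12 had a member, and with either score minimum or at a TSS 0 did. DMSO-only regions were near 7 of the 12 (58.3%).

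In the remaining lists, epithelial genes had 7 of 30 (23.3%) near a member and 14 near a CK1750-only region, and mesenchymal genes 5 of 30 and 7. Of all protein-coding genes, 10.9% were near a member and 18.5% near a CK1750-only region. The counts near a member were 4 of 17 for AP-1 family genes, and 4 of 16 for YAP and TEAD genes with Amotl2 (124.11 and 56.65) at a TSS. Alveolar type 1 and club genes had 4 of 15, semaphorins and their partners 7 of 35 with Sema3b (101.86 and 59.97) at a TSS, and Wnt genes 6 of 40. For these lists in turn, 5, 5, 5, 10 and 9 genes were near a CK1750-only region. TGF-beta and BMP genes had 3 of 32, with a member of Smad3 (142.15 and 102.27) at a TSS, 0.098 kb from a CK1750 peak. Interferon response genes had 2 of 23, enzymes of H3K9 methylation 1 of 19 and Hox genes 0 of 39. Near a CK1750-only region were 9, 3, 3 and 0 genes of these lists in turn. Over all lists, 95 of 494 genes (19.2%) had a member within 50 kb, against 10.9% of all protein-coding genes. Median gene length was 26.0 kb in genes near a member and 17.4 kb in all protein-coding genes. The part of gene length in these shares was not tested.

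**Figure D5:**
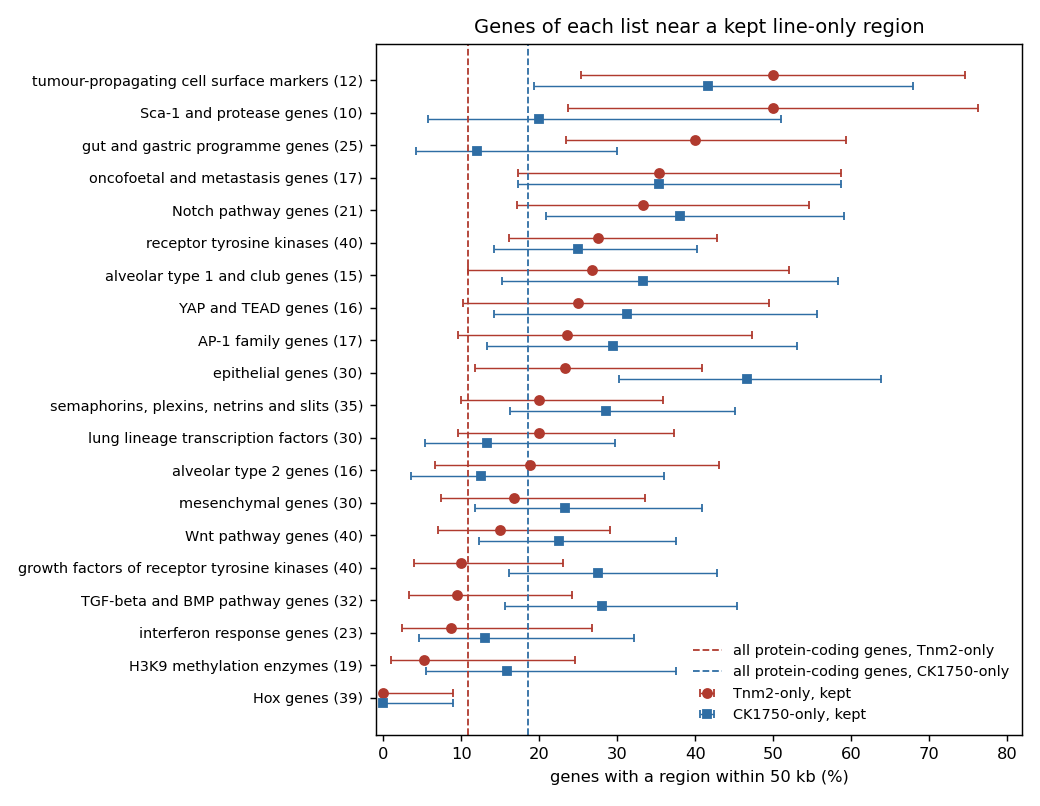
Share of the genes of each list (number in brackets) with a region within 50 kb (percent, Wilson 95% intervals) for members (red circles) and CK1750-only regions with peaks in both conditions (blue squares), with dashed lines at the shares of all protein-coding genes, 10.9% and 18.5%. For gut and gastric genes the members stand at 40.0% and the CK1750-only regions at 12%, while for epithelial genes the order is the other way.

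The lung epithelial label was checked at marker genes. Nkx2-1, Krt8, Krt18 and Cdh1 had TSS peaks in all 4 lists, whereas Epcam and Sftpc had none in any list, and Sftpb had 1 only in Tnm2 with UNC0638 (77.40). Ptprc and Cd68 of leukocytes, Pecam1 and Cdh5 of endothelium, and Pdgfrb of fibroblasts had no TSS peak in any list. Col1a1 had low peaks in 3 lists (51.89 to 102.58).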

How the data were processed

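The authors sequenced H3K27ac chromatin of 2 mouse lung adenocarcinoma lines with DMSO or 1 µM UNC0638. In their methods, bowtie2 placed the reads on mm10, and MACS 1.4.2 found peaks with a P cutoff of 1e-05. The deposited score of a peak, made by the authors, is -10 log10 of its P value. The submitters' processing notes also name SAMtools. Each group has 1 list, and which libraries and which control entered it is not given in the sources used here. The study's methods state more biological replicates for ChIP-seq than the H3K27ac titles carry replicate numbers. H3K9me2 and input samples were not analysed here.

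Intervals of the 4 lists were joined where they overlapped or touched (chromosomes 1 to 19 and X), and 0 peaks ended beyond a GRCm38 chromosome. TSSs and genes came from GENCODE M 21, with a promoter window of 1 kb and a gene window of 50 kb. GC and motifs were read in 500 bp at the centre of a region. Copies were alignments elsewhere (minimap2 2.31) over at least 80% of a region at 95% identity. The joining step was tested on simulated intervals.

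The members, gene lists, motifs and named genes were chosen with earlier results of these data known. Named were the 10 members at protein-coding TSSs and the 10 away from TSSs with the highest smaller score, the 10 genes with most members, the genes of each list with a TSS member or else up to 3 with most members, and the 5 runs with most members. Others named in the text (Wipf1 and Xist, list genes without a member or beyond the first 3, and the further members of named genes) were chosen after their values were seen. Of the listed symbols, 4 were absent from the annotation. A gene of the gut and gastric list is counted but not reported here. Alternatives were score cutoffs, distances to CK1750 peaks, joining within 1 kb, equal list lengths, and other windows. Python 3.11.15, numpy 2.4.6, pandas 2.3.3, scipy 1.17.1 and pysam 0.24.0 were used.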

Additional observations from a re-analysis of the deposited data

How the results depend on the processing

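No paired analysis was possible because each group has only 1 merged list. For the same reason no library could be left out in turn. The number of members was 691 with only peaks scoring at least 100, 313 with that minimum in the Tnm2 lists alone, and 897 without a CK1750 peak within 5 kb, and 1194 to 1542 under the other alternatives. The share of CK1750-free Tnm2 DMSO regions with a UNC0638 peak was 17.5%, 14.9% and 20.1% under these settings in turn, 19.5% with 1 kb, 21.1% with intervals joined within 1 kb, 16.1% with Tnm2 peaks that cover 50% of each other, and 48.9% with the same number of highest-scoring peaks from each list, a setting that drops the weaker peaks of the longer lists. The promoter share was 26.9% and 31.6% with the score minimums, 24.1% with equal lists, 29.8% with a window of 2.5 kb and 15.6% with protein-coding TSSs only. Median GC was 51.2% with the Tnm2 minimum and 48.7% in 1000 bp. The AP-1 share was 18.8% with the Tnm2 minimum, 23.6% with joining within 1 kb, 23.9% without CK1750 peaks within 5 kb and 36.7% in 1000 bp. Genes of the lists with a member numbered 81 by nearest TSS and 17 by TSS window. The other alternatives for genes were chosen after seeing the data, as were leaving out members with copies or on chromosomes 6 and 19. They gave 46 and 23 genes with the score minimums, 48 without CK1750 peaks within 5 kb, and 77 to 98 otherwise. Of the 25 gut and gastric genes, 4 to 11 had a member within 50 kb under every one of these, beside 2.77% to 11.6% of all protein-coding genes. Of the 20 strongest named members, 16 to 20 were kept. Read depth is unknown, so weak members and weak absences cannot be told apart from a difference in depth between lists.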

Other observations

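A member lay at the start of Xist, the RNA that coats the inactive X chromosome of female cells, at chrX:103481675-103482823. Its scores were 260.27 with DMSO and 66.44 with UNC0638, or percentiles of 68.2 and 20, and neither CK1750 list had a peak there. On chromosome X lay 15 members (1.01% of 1478) and 85 CK1750-only regions with peaks in both conditions (3.9% of 2179). The sex of the lines is not given in the labels. Xist was picked after its values were seen, and no test was made.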
